A study of Mus musculus with 6 samples.

Results

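The lysosomal cathepsins are proteases that break down proteins inside lysosomes. The 10 genes described here, Ctsa, Ctsb, Ctsc, Ctsd, Ctse, Ctsh, Ctsl, Ctss, Ctsw and Ctsz, were taken by name from the 49585 mouse gene IDs of the deposited count table, and all 10 were found and passed the filter on low counts, Ctsw chiefly through its NT libraries. They encode 7 cysteine proteases (Ctsb, Ctsc, Ctsh, Ctsl, Ctss, Ctsw, Ctsz), 2 aspartic proteases (Ctsd, Ctse) and 1 serine carboxypeptidase (Ctsa).

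The study sequenced RNA from 6 libraries of mouse acute myeloid leukemia cells driven by the fusion gene KMT2A-MLLT3. Marrow taken from moribund leukemic mice was transduced with DOT1L, the enzyme that methylates lysine 79 of histone H3, and populations with low and high DOT1L expression were sorted and collected 3 days later. Every library carries the KMT2A-MLLT3 leukemia, and the cells were grown in DMEM with serum, mIL3, mIL6 and mSCF. The libraries are labelled NT, which the labels do not spell out, DOT1L Low and DOT1L High, with 1 of each for K3117 and K3174, here called the 2 leukemias because each number recurs in the title of 1 library per label. Whether the NT cells were transduced or sorted, the vector and promoter that drove DOT1L, the species of the DOT1L sequence and the ages and strains of the mice are not stated in the labels. Nor do the labels say that libraries came from separate mice, so the p-values measure the spread between these libraries, which may be partly technical.

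Cathepsins are made as inactive precursors, tagged with mannose 6-phosphate, carried to the acidic lysosome and activated there by removal of a propeptide. In myeloid cells they digest engulfed material, trim antigens and the invariant chain for MHC class II, and, in the case of cathepsin C, activate the serine proteases of granules. Cystatins and stefins block the cysteine cathepsins, and the transcription factors Tfeb, Tfe3 and Mitf drive many lysosomal genes through DNA sites built around the E-box CACGTG.

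Start-site sequences are shown for Ctsd, Ctsc and Ctss, which were higher in High than in NT, and for Ctsa, which did not pass the test, so that the presence of CACGTG can be set beside the change. Each runs 5′ to 3′ on the gene's strand from 250 bases before to 20 bases after a RefSeq transcript start on GRCm38.p6, with CACGTG in capitals.
Ctsd, chr7:142387808-142388077, minus strand: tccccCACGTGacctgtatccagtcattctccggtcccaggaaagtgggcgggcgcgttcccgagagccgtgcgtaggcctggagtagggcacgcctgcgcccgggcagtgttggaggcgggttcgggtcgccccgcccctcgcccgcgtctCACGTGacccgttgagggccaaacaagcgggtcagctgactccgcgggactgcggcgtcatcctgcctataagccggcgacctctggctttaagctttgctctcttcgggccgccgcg
Ctsc, chr7:88277835-88278104, plus strand: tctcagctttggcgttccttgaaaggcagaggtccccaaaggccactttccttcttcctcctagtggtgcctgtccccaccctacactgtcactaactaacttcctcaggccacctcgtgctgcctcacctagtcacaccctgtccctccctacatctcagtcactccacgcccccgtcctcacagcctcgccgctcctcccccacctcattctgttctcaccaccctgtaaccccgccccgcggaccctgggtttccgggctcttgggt
Ctss, chr3:95526536-95526805, plus strand: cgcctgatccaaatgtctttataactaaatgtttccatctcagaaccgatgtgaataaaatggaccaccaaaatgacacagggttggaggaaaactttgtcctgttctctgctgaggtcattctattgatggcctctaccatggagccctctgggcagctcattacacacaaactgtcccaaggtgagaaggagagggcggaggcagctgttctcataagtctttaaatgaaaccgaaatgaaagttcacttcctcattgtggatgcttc
Ctsa, chr2:164833523-164833792, plus strand: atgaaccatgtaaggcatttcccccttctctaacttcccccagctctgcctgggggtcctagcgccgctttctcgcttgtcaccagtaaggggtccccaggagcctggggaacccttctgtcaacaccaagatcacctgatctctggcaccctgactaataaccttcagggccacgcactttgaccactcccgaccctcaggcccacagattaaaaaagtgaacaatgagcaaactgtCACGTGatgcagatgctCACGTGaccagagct
RefSeq windows of 250 bases before and 50 after the start were at hand for 6 of the 10 genes (Ctsa, Ctsc, Ctsd, Ctsl, Ctss, Ctsz). Both strands were searched for CACGTG and for TCACGTGA, which contains it. The Ctsd window held CACGTG 245 and 98 bases before the start, the second within TCACGTGA. The second of 2 listed starts of Ctsa had it 12 bases before and 5 bases after the start, both within TCACGTGA. In Ctsl it lay 236 bases before the start. No match was found for Ctsc, Ctss, Ctsz or the first Ctsa start. Over all 32851 mouse windows of the same length, 7.15% held CACGTG and 0.974% held TCACGTGA. A match is a stretch of letters, and binding was not measured here.

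Per library, 22908445 to 33265848 counts fell on genes, of which the cathepsins took 0.151% to 0.263%. Levels are given as CPM, counts scaled for library size. The mouse Dot1l gene had 143 ± 21.4 CPM (NT), 168 ± 22.4 (Low) and 143 ± 9.52 (High; SD, n = 2), so its count did not follow the labels. Whether reads of the transduced sequence fall on this gene is not known, as its species is not stated. The Low and High labels are therefore taken as given. The test was edgeR's quasi-likelihood test on the 15812 genes kept, with the leukemia as a block and p-values adjusted by Benjamini-Hochberg over all of them, and a gene is called at an adjusted p under 0.05. Of the genes called in High against NT, 57.8% were higher, against 43.9% with upper quartile factors in place of TMM factors.

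Levels can be set side by side between genes only per length, and 2 lengths were used: all annotated exon bases of a gene, and its principal transcript. Ctsz, encoding a carboxypeptidase, had the highest level at a mean of 400.3 CPM per kb of exons over the 6 libraries (range 330 to 501). Ctsd followed at 129.9 (93.04 to 202), and Ctsb at 81.0 (56.8 to 114). Those 3 stood in that order in each of the 6 libraries under both lengths, although the ranges of Ctsd and Ctsb overlapped across libraries.

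Lower levels per kb of exons were 49.9 for Ctsa, 34.0 for Ctsc, 24.3 for Ctss, 13.8 for Ctsh and 9.60 for Ctsl. Each of these neighbours overlapped the next in range, and their order changed with the length: per kb of the principal transcript, Ctsc (79.2) lay above Ctsa (64.5), and Ctsh (38.5) and Ctsl (31.6) above Ctss (24.4). At the bottom were Ctse at 0.925 and Ctsw at 0.199 CPM per kb of exons, in that order in all 6 libraries and with ranges that overlapped neither each other nor those above. Ctsz alone made up 48.7% to 59.8% of the summed cathepsin level per kb of exons in a library.

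**Figure D1:**
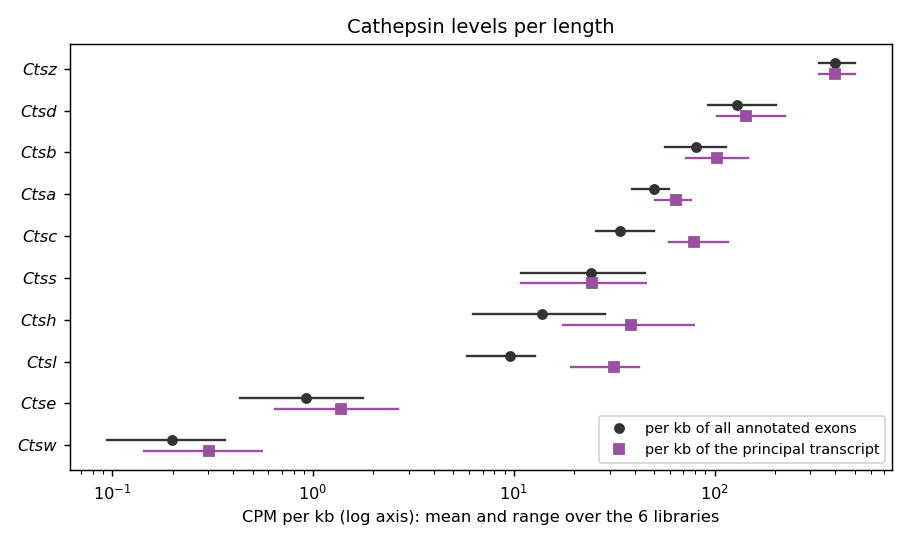
Level of each cathepsin gene in CPM per kb on a log axis, as the mean (point) and range (line) over the 6 libraries, per kb of all annotated exons (dark circles) and of the principal transcript (purple squares). Ctsz lies highest at a mean of 400.3 and Ctsw lowest at 0.199 per kb of exons, and the genes between Ctsb and Ctse change places with the length used.

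In DOT1L High cells, 5 of the 10 cathepsin genes were called higher than in NT and none lower. They were Ctsh, Ctsc, Ctsd, Ctss and Ctsb, with fitted rises between 1.35-fold (Ctsb) and 3.82-fold (Ctsh). Over all genes tested, 17.3% were called in this comparison, 10.0% higher and 7.32% lower. The median log2 fold change of the 10 genes was 0.48, against -0.01 over all genes tested. In bulk RNA, fewer cells of a type and less RNA per cell cannot be told apart, and the same holds for more of either.

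**Figure D2:**
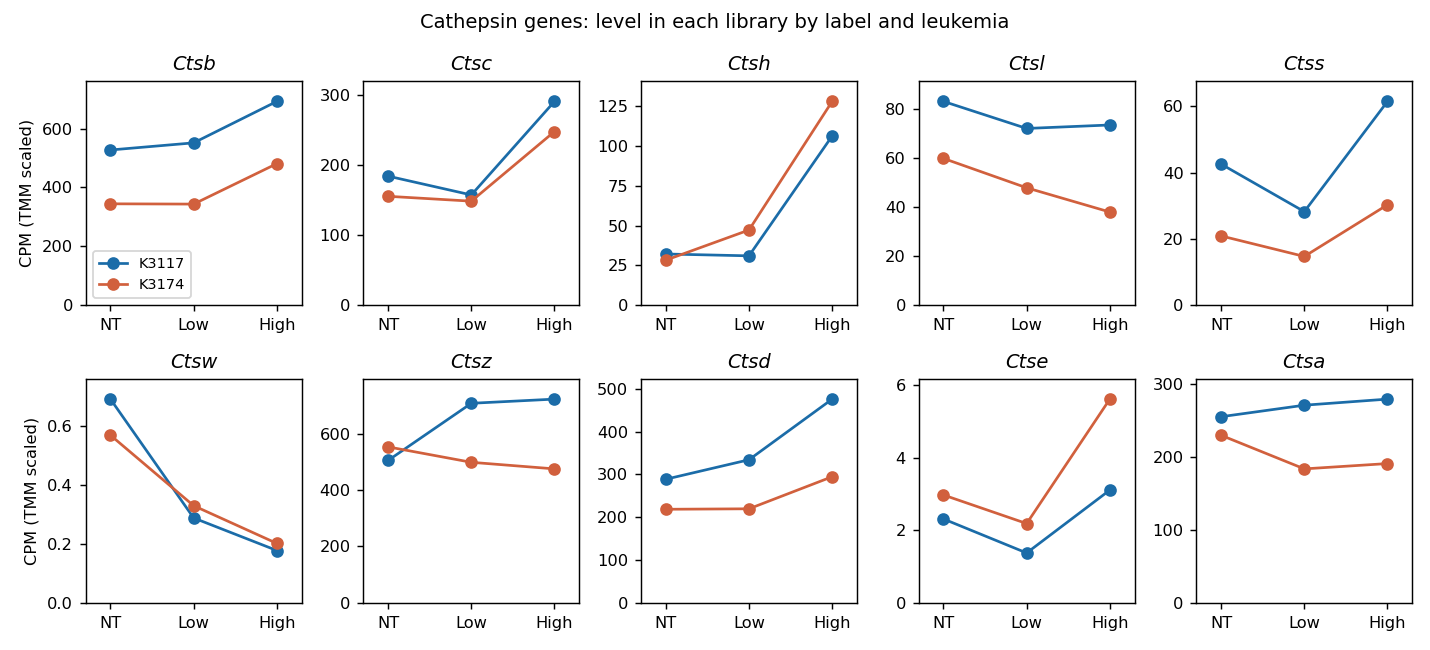
CPM of each cathepsin gene (vertical axes start at 0, and differ between panels) in the NT, Low and High libraries of K3117 (blue) and K3174 (orange), 1 point per library. Ctsh, Ctsc, Ctsd, Ctsb and Ctss are higher in High than in NT in both leukemias, while the lines of Ctsz and Ctsa slope in opposite directions between NT and High.

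Ctsh (ENSMUSG00000032359.14, chr9:90054152-90076089, plus strand, GRCm38) encodes an aminopeptidase that also cuts within chains. In K3117 it stood at 32.2 CPM (NT), 31.0 (Low) and 106 (High), and in K3174 at 28.3, 47.3 and 128. Both High libraries were above all 4 others, and the K3174 Low library lay between. The mean was 30.3 ± 2.74 CPM in NT and 117 ± 15.4 in High (SD, n = 2). High exceeded NT by 1.93 ± 0.17 on the log2 scale (SE; edgeR adjusted p = 1.8e-05), and High exceeded Low by 1.59 ± 0.17 (edgeR adjusted p = 0.00029). Its share of the summed cathepsin CPM went from 1.68% to 3.93% between NT and High of K3117, and from 1.75% to 6.77% in K3174. Low did not pass against NT (0.34 ± 0.17, edgeR adjusted p = 0.45), with differences of -0.05 in K3117 and 0.74 in K3174. Without the K3117 NT library it did pass (0.66, edgeR adjusted p = 0.0018).

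Ctsc (ENSMUSG00000030560.17, chr7:88278085-88310888, plus strand) encodes the dipeptidyl peptidase that activates granule serine proteases. Its CPM was 184 (NT), 157 (Low) and 291 (High) in K3117, and 155, 148 and 248 in K3174. The High libraries stood above all others, and Low lay slightly below NT in each leukemia. High exceeded NT by 0.67 ± 0.11 log2 (edgeR adjusted p = 0.0017) and Low by 0.81 ± 0.11 (edgeR adjusted p = 0.0016), with nearly equal High against NT differences of 0.66 in K3117 and 0.67 in K3174. Its Low against NT difference was -0.15 ± 0.11 (edgeR adjusted p = 0.76).

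Ctss (ENSMUSG00000038642.10, chr3:95526786-95556403, plus strand) encodes a cysteine protease of antigen-presenting cells that cuts the invariant chain. Its CPM was 42.6 (NT), 28.3 (Low) and 61.5 (High) in K3117, and 20.9, 14.7 and 30.3 in K3174. In each leukemia Low was the lowest and High the highest, but every K3117 value except Low lay above every K3174 value, so High overlapped NT, and Low overlapped NT, while both High values lay above both Low values. High exceeded NT by 0.53 ± 0.13 log2 (edgeR adjusted p = 0.016) and Low by 1.08 ± 0.13 (edgeR adjusted p = 0.00068). Ctss was the only cathepsin gene called in Low against NT, where it fell by 0.55 ± 0.13 (edgeR adjusted p = 0.048), beside 3.34% of all genes called in that comparison, 2.05% higher and 1.29% lower. The High against NT call was lost without the K3117 High library (edgeR adjusted p = 0.18) or the K3174 High library (0.12). The Low against NT call was lost without the K3117 Low library (0.46) or the K3174 Low library (0.40).

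Ctsb (ENSMUSG00000021939.7, chr14:63122462-63145923, plus strand), encoding a cysteine protease that removes dipeptides from protein ends, was among the most counted of the 10. It stood at 527 CPM (NT), 552 (Low) and 692 (High) in K3117, and at 345, 344 and 481 in K3174. High was the highest of each leukemia, while the K3174 High library lay below the K3117 NT library. High exceeded NT by 0.44 ± 0.12 log2 (edgeR adjusted p = 0.023) and did not pass against Low (0.41 ± 0.12, edgeR adjusted p = 0.072). The first call was lost without the K3117 High library (edgeR adjusted p = 0.087) or the K3174 High library (0.28), and with upper quartile factors (0.056). Ctsb shares 774 annotated exon bases with Fdft1 on the opposite strand, which had 1521 to 3217 counts, and reads of that stretch cannot be assigned without strand.

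Ctsl, Ctsz and Ctsw, the remaining cysteine proteases, did not pass in any of the 3 comparisons between labels. Ctsl (ENSMUSG00000021477.8, chr13:64359337-64370890, minus strand), a broad endopeptidase of lysosomes, stood at 83.0 CPM (NT), 71.9 (Low) and 73.4 (High) in K3117, and at 59.8, 47.8 and 37.9 in K3174. NT was the highest in each leukemia, where for the 5 called genes High was. High differed from NT by -0.41 ± 0.14 log2 (edgeR adjusted p = 0.067). It did pass in 5 of the 14 alternatives for this comparison, among them without the K3117 NT library (-0.56, edgeR adjusted p = 0.0027), without the K3117 High library (-0.64, 0.035) and with upper quartile factors (-0.50, 0.023). Ctsl shares 1742 exon bases with the antisense gene Gm47123, which was not analysed here.

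Ctsz (ENSMUSG00000016256.10, chr2:174427493-174439039, minus strand) encodes cathepsin Z, which removes single residues from the carboxyl end. In K3117 it went from 505 CPM in NT to 707 in Low and 722 in High, while K3174 went from 553 to 498 and 475. The direction from NT differed between the leukemias. The fitted High against NT difference was 0.14 ± 0.17 log2 (95% interval -0.22 to 0.50, edgeR adjusted p = 0.66), and the Low against NT difference was 0.15 ± 0.17 (edgeR adjusted p = 0.87). Without the K3174 NT library Ctsz passed in both (0.49 with an adjusted p of 0.0044, and 0.51 with 0.0092, edgeR), while without the K3117 NT library the values were -0.20 and -0.17.

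Ctsw (ENSMUSG00000024910.4, chr19:5465043-5468507, minus strand), a cysteine protease known from cytotoxic lymphocytes, was close to the limit of detection. Its counts were 23 (NT), 9 (Low) and 4 (High) in K3117, and 13, 11 and 6 in K3174. Both High libraries were below both Low libraries and those below both NT libraries, at 0.178 and 0.202 CPM in High against 0.692 and 0.569 in NT. The High against NT difference of -1.71 ± 0.59 log2 did not pass (edgeR adjusted p = 0.071). Ctsw was kept by the filter on low counts chiefly through NT, where it was highest, and it was not kept with the Low and High libraries alone, so its difference from NT is given as a description. Of 11 T cell and NK cell markers, Cd3e, Cd8a, Gzma and Ncr1 had no count in any library. The only 1 tested, Nkg7, had 7.70, 24.3 and 42.7 CPM in NT, Low and High of K3117 and 22.1, 44.6 and 54.8 in K3174, and was called higher in Low and High against NT. Nkg7 made up most of the summed level of the list, 8.57 to 43.1 CPM in K3117 and 22.3 to 54.9 in K3174, and its part in the Ctsw values was not tested.

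Of the aspartic proteases, Ctsd (ENSMUSG00000007891.16, chr7:142375911-142388038, minus strand) encodes the main endopeptidase of this class in lysosomes. It stood at 289 CPM (NT), 334 (Low) and 476 (High) in K3117, and at 219, 219.8 and 295 in K3174. High was highest in both leukemias, with K3174 High just above K3117 NT, and the Low value was above NT in K3117 and next to NT in K3174. High exceeded NT by 0.57 ± 0.12 log2 (edgeR adjusted p = 0.0061) and Low by 0.47 ± 0.12 (edgeR adjusted p = 0.046). Without the K3117 High library neither call held (edgeR adjusted p = 0.10 against NT and 0.46 against Low). The call against Low was also lost without the K3117 Low library (0.39), the K3174 Low library (0.37) or the K3174 High library (0.10), and with library sizes alone (0.054) or upper quartile factors (0.074).

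Ctse (ENSMUSG00000004552.16, chr1:131638306-131675505, plus strand), an aspartic protease of endosomes in immune cells, was low, with 43 to 167 counts a library. Its CPM was 2.32 (NT), 1.38 (Low) and 3.11 (High) in K3117, and 2.98, 2.19 and 5.62 in K3174. As with Ctss, Low was the lowest and High the highest in each leukemia. High exceeded Low by 1.28 ± 0.27 log2 (edgeR adjusted p = 0.018), and this call was lost without either Low library (edgeR adjusted p = 0.20 for K3117 and 0.16 for K3174) or the K3174 High library (0.17). High did not pass against NT (0.68 ± 0.27, edgeR adjusted p = 0.11), except without the K3117 NT library (0.88, 0.044).

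Ctsa (ENSMUSG00000017760.15, chr2:164832873-164841032, plus strand) encodes the serine carboxypeptidase that shields neuraminidase 1 and beta-galactosidase in a complex. It stood at 255 CPM (NT), 271 (Low) and 279.5 (High) in K3117, and at 229.9, 184 and 191 in K3174. High was above NT in K3117 and below it in K3174, and the fitted difference was -0.07 ± 0.13 log2 (95% interval -0.36 to 0.21, edgeR adjusted p = 0.78). Between Low and NT it was -0.12 ± 0.13 (edgeR adjusted p = 0.87), and between High and Low 0.05 ± 0.13 (edgeR adjusted p = 0.94).

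**Figure D3:**
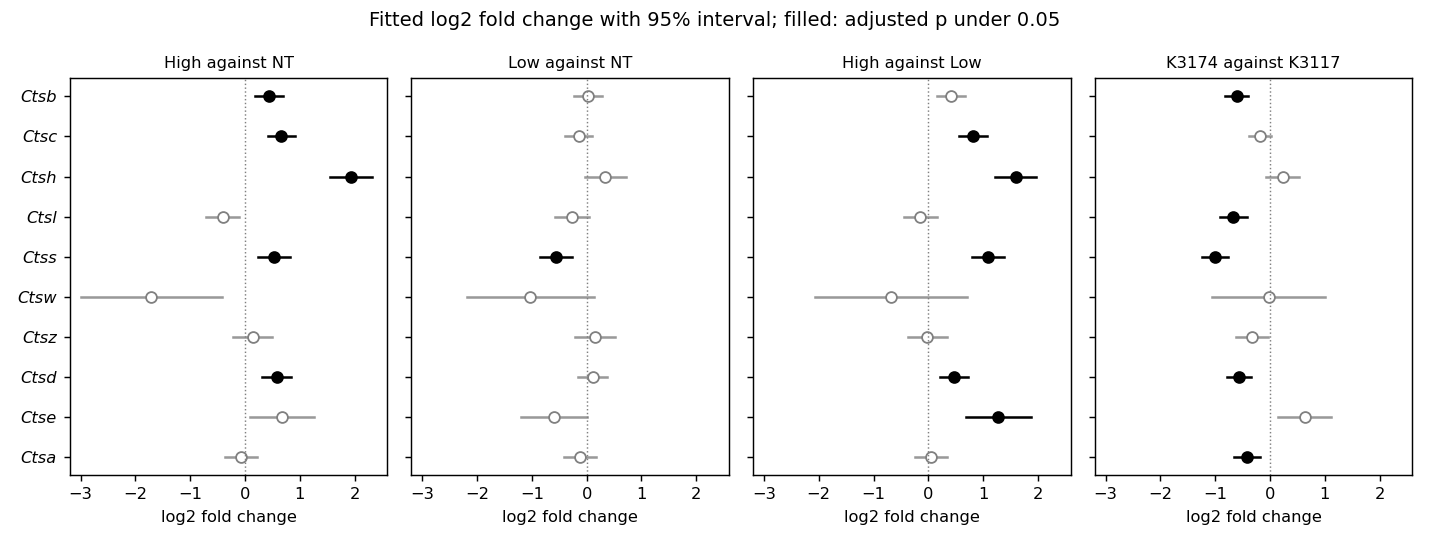
Fitted log2 fold change of each cathepsin gene with its 95% interval, for 4 comparisons, filled where the edgeR adjusted p is under 0.05. Ctsh stands farthest to the right in High against NT (1.93) and High against Low (1.59), Ctss is the filled point in Low against NT (-0.55), and the filled points of K3174 against K3117 all lie left of 0.

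High against Low gave 5 calls among the 10 genes, all higher in High (Ctsh, Ctss, Ctsc, Ctse and Ctsd), beside 5.48% of all genes called and 4.12% called higher. Ctsh, Ctsc, Ctss and Ctsd were called against NT and Low alike, but the comparisons share the High libraries. The 2 comparisons with NT share the NT libraries. Both groups of High and NT values were fully apart, with High above, for Ctsc, Ctsd, Ctse and Ctsh and, with High below, for Ctsw, and 25.3% of all genes tested were apart in each direction. Summed over the 10 genes, the level was 1922 CPM (NT), 2155 (Low) and 2706 (High) in K3117, and 1614, 1506 and 1892 in K3174. High over NT was therefore 1.41 in K3117 and 1.17 in K3174, Low over NT was 1.12 and 0.933, and High over Low was 1.26 in both.

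Most calls between labels rest on fitting the leukemia as a block. In the fit without it, 1 of the 10 genes was called in High against NT (Ctsh, edgeR adjusted p = 0.018), and Ctsc was next (0.056). None was called in Low against NT or in High against Low, where 0 and 3 of the 10 had an unadjusted p under 0.05. Between the leukemias the matching fit leaves out the label, and it called none, with 5 of the 10 at an unadjusted p under 0.05. DESeq2, which had the block, called 5 genes in High against NT, 1 in Low against NT, 6 in High against Low and 5 between the leukemias. Totals over all genes for the fits without the block, and for DESeq2 in Low against NT and High against Low, are given in the closing section. They are not given for DESeq2 in High against NT or between the leukemias.

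**Figure D4:**
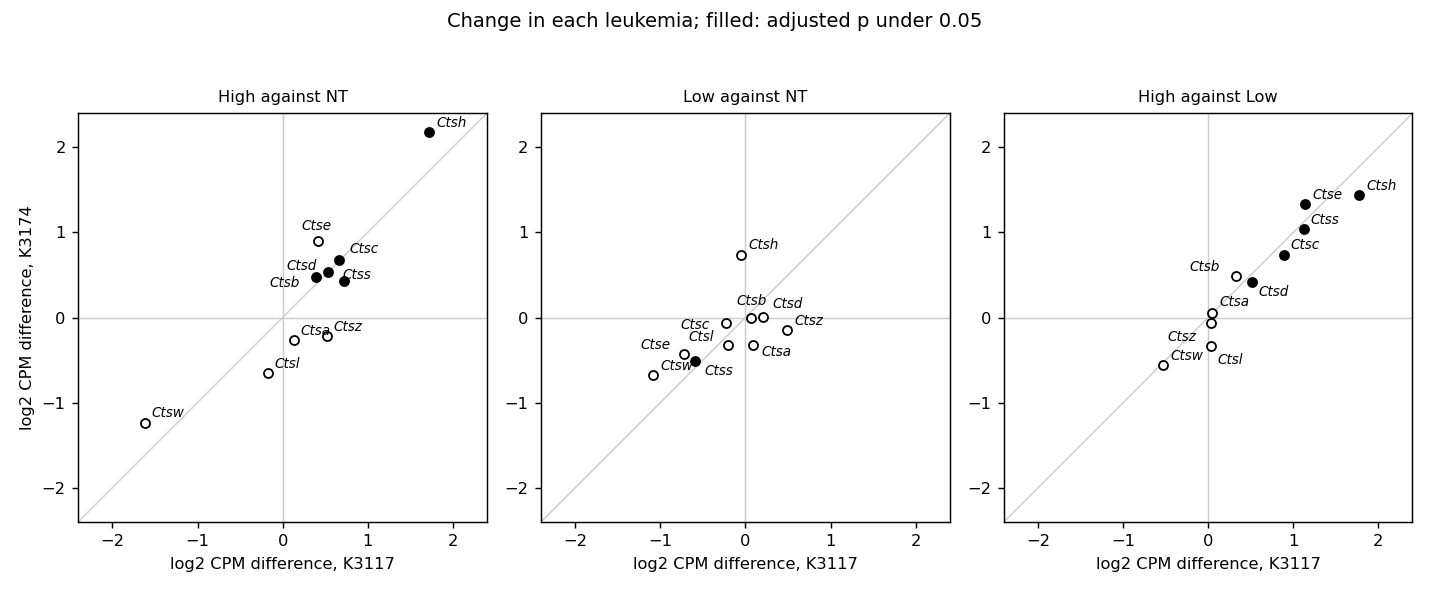
Difference in log2 CPM of each cathepsin gene in K3117 (horizontal) and K3174 (vertical) for the 3 comparisons between labels, with the diagonal of equal change and filled points where the edgeR adjusted p is under 0.05. In High against NT the filled points lie in the upper right quadrant, and Ctsz (0.52 in K3117, -0.22 in K3174) and Ctsa (0.13 and -0.27) lie in the lower right.

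K3174 cells had less of several cathepsin transcripts than K3117 cells at the same label. With the label held constant, Ctss (-0.996 ± 0.11 log2, edgeR adjusted p = 0.00013), Ctsl (-0.67 ± 0.11, 0.0028), Ctsb (-0.61 ± 0.10, 0.0016), Ctsd (-0.57 ± 0.10, 0.0031) and Ctsa (-0.42 ± 0.11, 0.029) were called lower and none higher, beside 9.37% of all genes called, 6.32% lower and 3.05% higher. For Ctss the difference between the leukemias was much the same at each label, with values of -1.02 in NT, -0.94 in Low and -1.02 in High. Ctsl differed by -0.47 in NT, -0.59 in Low and -0.95 in High. In the same order, Ctsb differed by -0.61, -0.68 and -0.53, and Ctsd by -0.40, -0.61 and -0.69. Ctsa differed less in NT (-0.15) than in Low (-0.56) and High (-0.55). The Ctsa call was lost without any 1 of the 4 Low and High libraries (edgeR adjusted p from 0.17 to 0.29). Ctsh (0.24 ± 0.14, edgeR adjusted p = 0.41) and Ctsc (-0.19 ± 0.09, 0.30), which had the smallest p-values in High against NT, did not pass between the leukemias. Without either NT library Ctsh did pass (0.43 and 0.44, edgeR adjusted p = 0.0025 and 0.0038), and so did Ctse and Ctsz.

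Genes that work with the cathepsins were taken from 10 further lists. Their calls in High against NT stand beside 10.0% of all genes tested called higher and 7.32% called lower. Other genes named as cathepsins numbered 13 in the table, and 9 of those had no counts at all. Ctsg, a granule serine protease, had 854 to 1417 CPM and did not pass (0.17 ± 0.18, edgeR adjusted p = 0.62). Ctso fell from 15.8 to 6.62 CPM in K3117 and from 7.35 to 4.11 in K3174 between NT and High (-1.06 ± 0.20 log2, edgeR adjusted p = 0.0033). Ctsk, known for breaking down bone collagen, rose by 2.10 ± 0.50 (edgeR adjusted p = 0.012) at 0.131 to 2.45 CPM, a call lost by DESeq2 (0.065) and without the K3117 NT library (0.11) or the K3117 High library (0.26). Ctsf did not pass (-1.04 ± 0.42, edgeR adjusted p = 0.13).

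Of the inhibitors, 7 of 11 tested were called higher in High than in NT and none lower. The 7 were Cst3, Cst7, Stfa1, Stfa2, Stfa3, Stfa2l1 and BC100530, so most of them were stefin genes. The intracellular stefins Stfa2 (6.29 ± 0.40 log2), Stfa3 (4.29 ± 0.31) and Stfa1 (3.99 ± 0.28) had the smallest p-values, with edgeR adjusted p between 1.9e-06 and 4.1e-06. Stfa1 went from 3.22 CPM in NT to 8.97 in Low and 78.1 in High of K3117, and from 14.8 to 44.1 and 154 in K3174. The stefin genes are near-identical copies, so the split of reads among them is uncertain and their calls may not be separate results. Cst7, which encodes cystatin F, an inhibitor of cathepsin C among others, stood at 37.5, 65.8 and 90.6 CPM in K3117 and 46.6, 86.3 and 111 in K3174, in the order NT, Low, High. It was called higher in High (1.26 ± 0.12, edgeR adjusted p = 2.7e-05). Cst3, the secreted cystatin C, was also called higher (0.73 ± 0.11, edgeR adjusted p = 0.00084).

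Granule serine proteases that cathepsin C can activate gave 4 calls higher and none lower among 6 tested. Prss57 rose by 2.77 ± 0.15 log2 (edgeR adjusted p = 6.6e-07), Elane (neutrophil elastase) by 3.15 ± 0.30 (2.8e-05), Prtn3 (proteinase 3) by 1.75 ± 0.19 (5.8e-05) and Cma1 (chymase) by 1.46 ± 0.36 (0.015, but 0.12 without the K3174 High library). Elane, Prtn3 and Prss57 were called higher in Low against NT too, where Ctsc was not called (-0.15 ± 0.11 log2). Elane stood at 59.4, 514 and 953 CPM in NT, Low and High of K3117 and at 233, 955 and 1185 in K3174. The order of Ctsc was different, with Low below NT in both leukemias. Gzmb did not pass (1.59 ± 0.54, edgeR adjusted p = 0.067). Neither did Ctsg, described above, which is also of this list and was at 0.17 log2 with 854 to 1417 CPM. Cma1 was low, at 0.120 CPM in NT and 0.578 in High of K3117, and at 2.98 and 7.10 in K3174.

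Among 5 genes for propeptide processing and partner proteins, 2 were called higher and 1 lower in High against NT. Neu1, the sialidase held in complex with cathepsin A, rose by 1.09 ± 0.14 log2 (edgeR adjusted p = 0.00022), while Ctsa itself was at -0.07 ± 0.13. Psap, the precursor of saposins, which binds procathepsin D, rose by 0.65 ± 0.12 (edgeR adjusted p = 0.0026), beside 0.57 ± 0.12 for Ctsd. Lgmn, the asparaginyl endopeptidase that trims several cathepsins, fell by 0.66 ± 0.20 (edgeR adjusted p = 0.041). The Lgmn call was lost by DESeq2 (0.072), with only the NT and High libraries fitted (0.080), and without any 1 of 5 of the 6 libraries (edgeR adjusted p from 0.064 to 0.29), the exception being K3174 NT. In the 9 genes tested for MHC class II antigen processing there were 3 calls lower and none higher, with H2-Ab1 (-1.32 ± 0.20, edgeR adjusted p = 0.00086), H2-DMa (-1.25 ± 0.20, 0.0011) and Lgmn. The invariant chain Cd74, whose removal is the best known task of cathepsin S, was at -0.46 ± 0.21 (edgeR adjusted p = 0.17). Between NT and High it went from 52.9 to 28.8 CPM in K3117 and from 9.72 to 10.2 in K3174.

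Transcription factors of lysosomal biogenesis split evenly. Tfec (1.07 ± 0.13 log2, edgeR adjusted p = 0.00013) and Mitf (1.11 ± 0.25, 0.0093) were called higher in High than in NT, and Tfeb (0.06 ± 0.18, 0.88) and Tfe3 (-0.02 ± 0.15, 0.96) were not called. The list for mannose 6-phosphate tagging and for sorting had 4 of 10 higher and 1 lower. The sorting receptors Sort1 (0.73 ± 0.12, edgeR adjusted p = 0.001) and Scarb2 (0.47 ± 0.12, 0.021) were higher. Gnptab, a subunit of the tagging enzyme, was lower (-0.43 ± 0.12, edgeR adjusted p = 0.027). The Gnptab call was lost with only the NT and High libraries fitted (0.052) and without the K3117 High (0.054), K3174 NT (0.074) or K3174 High library (0.40), and Scarb2 was lost without the K3117 High (0.27) or K3174 High library (0.11) and with upper quartile factors (0.053). Only 1 of the list was higher with either High library left out or with upper quartile factors.

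Subunits of the proton pump that acidifies the lysosome were called higher in 9 of 15 and lower in none, led by Atp6v1e1 (0.81 ± 0.13 log2, edgeR adjusted p = 0.00087), Atp6ap2 (0.64 ± 0.13, 0.0045) and Atp6v1a (0.60 ± 0.12, 0.0048). That count was 3 without the K3117 High library, 4 without the K3174 High library and 6 with upper quartile factors, and Atp6v1a was among those lost without K3117 High (0.091). Lysosomal membrane proteins had 4 of 14 higher and none lower, among them Cd63 (0.97 ± 0.12, edgeR adjusted p = 0.00013), Ctns (0.77 ± 0.14, 0.0026) and Cln3 (0.46 ± 0.13, 0.034). Cln3 was lost without any 1 of the Low and High libraries (edgeR adjusted p from 0.051 to 0.32), with only the NT and High libraries fitted (0.059), with library sizes alone (0.057) and with upper quartile factors (0.077). The count was 2 without the K3117 High library or with upper quartile factors. The other lysosomal hydrolases had 8 of 33 higher and 3 lower, beside 10.0% and 7.32% of all genes tested. The sulfatase Arsb (1.70 ± 0.18, edgeR adjusted p = 5.6e-05) and Neu1 were higher and the sulfamidase Sgsh lower (-1.43 ± 0.17, 0.00013). Both counts were larger without the K3117 NT library, and no share of all genes called in that fit is set beside them.

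In Low against NT, 5 of 11 inhibitors, 3 of 6 granule serine proteases and 3 of the 33 other hydrolases were called higher, and 1 of those hydrolases lower. The 5 inhibitors were Cst7, Stfa1, Stfa2, Stfa2l1 and BC100530. Neu1 among the partner genes, Tfec among the transcription factors and Cd63 among the membrane proteins were called higher, each alone in its list. Leaving out 1 library at a time ended the Neu1 call for 3 of the 6 libraries, the Cd63 call for 2 and the Tfec call for 1. It also ended the calls of Arsb, Galc and Sgsh for 2 libraries each, and of Stfa1, Stfa2l1 and BC100530 for 1 each. Over all genes tested, 2.05% were called higher and 1.29% lower in this comparison. Without the leukemia block, High against NT gave 3 inhibitors, 2 pump subunits, 2 membrane proteins, 1 gene for mannose 6-phosphate tagging and sorting, 1 partner gene and 2 hydrolases higher. It gave 2 hydrolases lower. Fewer of all genes tested were called in that fit too, with the number given in the closing section. The granule serine protease, MHC class II and transcription factor lists then had 0 calls by edgeR, with 3, 2 and 2 genes at an unadjusted p under 0.05. No gene of any list changed the sign of a called difference in the alternatives run.

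**Figure D5:**
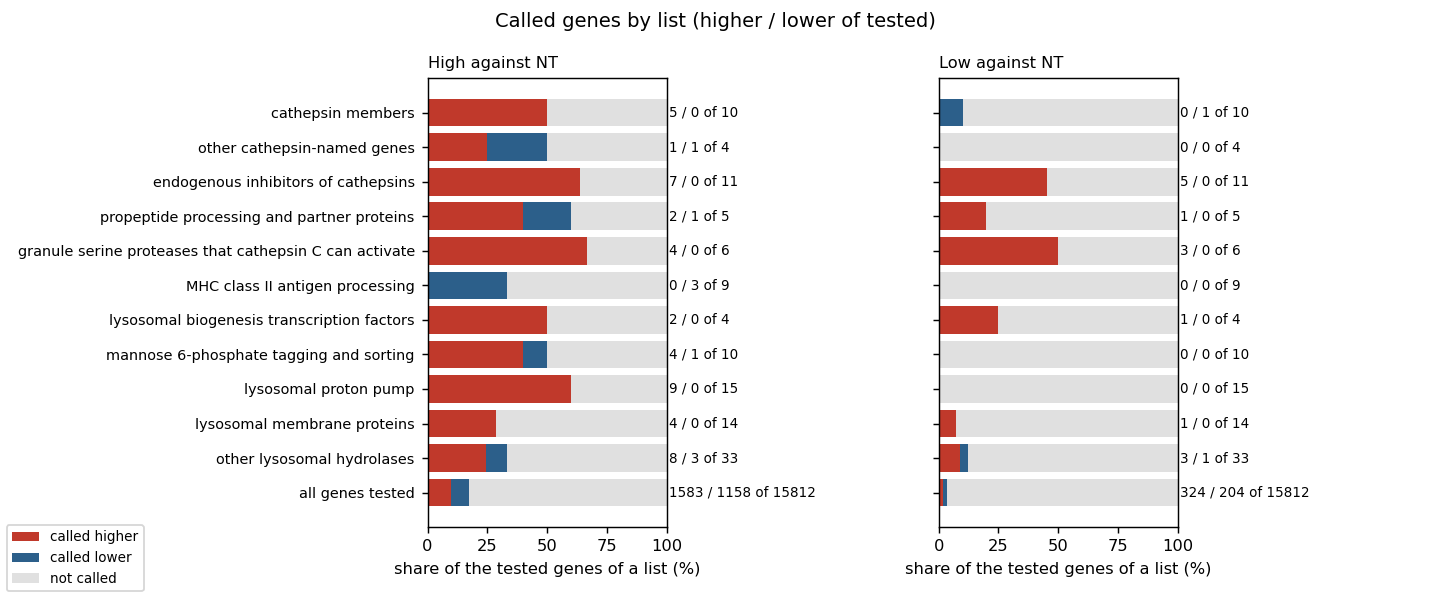
Share of the tested genes of each list called higher (red), called lower (blue) or not called (grey) in High against NT (left) and Low against NT (right), with the counts at the right of each bar. For the cathepsins 5 of 10 are higher in High and 1 of 10 is lower in Low, beside 1583 higher and 1158 lower of 15812 genes tested in High and 324 and 204 in Low.

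Genes with the most similar profile were sought for the 8 cathepsin genes with a mean of at least 5 CPM, by Pearson's r of log2 CPM over the 6 libraries among 9987 genes. These r values rest on 6 libraries that share leukemia and label, and are a description. Ctsd was closest to Cd14 (r = 0.997), which stood at 27.4, 43.9 and 97.8 CPM in K3117 and 16.3, 16.0 and 30.5 in K3174, then to Pmp22 and Plekhm3. Ctsc was closest to Adgre1 (0.997), at 39.1, 30.8 and 91.5 CPM in K3117 and 27.8, 24.0 and 68.7 in K3174, then to Pros1 and Lcp1. Ctsh was followed by Cd52 (0.996), Pdlim2 and Evl, and Ctss by Abca1 (0.994), Clec4d and Cyth4. For Ctsb the nearest were Acod1 (0.989), Tlr2 and Nfu1, for Ctsl Etnk1 (0.994), Gstt2 and Fez2, for Ctsa Cpt2 (0.991), Cd68 and Papss1, and for Ctsz Sec16a (0.998), Emilin1 and Xpnpep1.

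Cell type markers moved with the label too. The summed level of 12 monocyte and macrophage markers was 1525 CPM (NT), 1442 (Low) and 3114 (High) in K3117, and 909.6, 1157 and 2155 in K3174, with C1qa and C1qc at 0 in every library. Of the 9 tested, 4 were called higher and 2 lower in High against NT. Lyz2 and Ly6c2 made up most of each sum. Between NT and High, Lyz2 went from 596 to 1655 CPM in K3117 and from 127 to 862 in K3174. Csf1r and Adgre1 were also higher in High in both leukemias. Ccr2 (239 to 80.8 and 88.7 to 49.5 CPM) and Cx3cr1 (51.9 to 37.1 and 20.2 to 10.5) were lower in both. The 9 neutrophil markers summed to 20.7, 104 and 1522 CPM in K3117 and to 113, 1230 and 6762 in K3174, and 7 of 8 tested were called higher. The sum of 6 dendritic cell markers fell from 49.8 to 3.69 CPM in K3117 and from 32.0 to 1.88 in K3174 between NT and High, with 3 of 4 tested called lower. Most of the NT sum was Flt3, which went from 33.5 to 0.711 CPM in K3117 and from 27.2 to 0.337 in K3174. Itgax, Siglech and Zbtb46 were also lower in High in both leukemias. Xcr1 was slightly higher (0.331 to 0.400 and 0.438 to 0.572 CPM), and Clec9a differed in direction between the leukemias. The 7 mast cell and basophil markers summed to 119.8, 185 and 463 CPM in K3117 and to 191, 274 and 802 in K3174, and 4 of 5 tested were called higher. The 6 B cell markers summed to 248.5, 139 and 60.0 CPM in K3117 and to 168, 102 and 63.2 in K3174, and 1 of 3 tested was called lower. Ighm made up most of each sum, at 239, 129 and 48.6 CPM in K3117 and 150, 88.7 and 51.7 in K3174. Between NT and High, Cd79b went from 9.05 to 11.1 CPM in K3117 and from 16.9 to 10.9 in K3174. The part of these cell type programmes in the cathepsin differences was not tested.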

How the data were processed

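An RNeasy kit was used to extract the RNA, which was sequenced from both ends (150 bp, Illumina HiSeq), per the labels' protocols. The authors deposited 1 table of whole-number counts per gene, taken here as deposited. Per the submitters' processing notes, the tools were STAR, STAR-Fusion, kallisto and DESeq2 and the build mm10, without versions or roles. The counting tool, annotation and strand setting are not stated there or in the labels. Overlapping genes on opposite strands can therefore share reads.

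Gene IDs were matched without version to GENCODE names on GRCm38, which is mm10 (99.5% matched, and the 259 others held at most 0.0204% of a library). Counts were analysed with edgeR 4.0.16 in R 4.3.3: edgeR's expression filter, TMM factors (0.973 to 1.04), and a quasi-likelihood fit of label and leukemia over the 6 libraries (2 residual degrees of freedom), tested on simulated data first. The simulated counts held no difference between leukemias, unlike the data. In High against NT, 50% of 50 genes changed 1.5-fold and 96% of 50 changed 2-fold were recovered, so smaller changes can be missed. The leukemia number comes from the titles. As a check of the pairing, deviations of libraries with the same number correlated over genes at r = 0.57, 0.44 and 0.64 for the 3 pairs of labels. Every 2 libraries differed beyond sampling noise, with a chi-square of at least 26.9 per degree of freedom, and each counted as a sample. CPM are TMM-scaled, and log2 CPM add a prior count of 2. Alternatives were no block (for K3174 against K3117, no label), 3 other scalings, 2 other filters, DESeq2 1.42.0, 2 groups alone and each library left out.

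All 10 cathepsins were named. Of each other list, the 3 smallest p-values past the threshold for High against NT were named, plus every tested cathepsin-named gene, every tested protease that cathepsin C can activate and the 4 transcription factors. The members and lists were chosen with earlier results of these data known. Intervals cover the fitted spread only.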

Additional observations from a re-analysis of the deposited data

Results flagged for a closer look

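Ctsz and Ctsa differed in direction between the leukemias, in each case past the counting error of both differences. For Ctsz, High was above NT by 0.52 log2 CPM in K3117 and below it by -0.22 in K3174, so the K3174 change minus the K3117 change was -0.7351. Low against NT gave 0.49 and -0.15, which differ by -0.6361, and High against Low gave 0.03 and -0.07, which differ by -0.099. For Ctsa, High against NT gave 0.13 in K3117 and -0.27 in K3174, which differ by -0.3966, and Low against NT gave 0.09 and -0.32, which differ by -0.409. With 1 library per label and leukemia the difference was not tested. The comparisons with NT share the NT libraries, so these values are not independent of each other. Of the 30 pairs of a cathepsin gene and a comparison between labels, 8 had opposite signs in the 2 leukemias when counting error is disregarded, and these 5 remained when it is considered.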

How the results depend on the processing

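Beyond the calls that the report ties to single libraries, 466 of 541 recomputed values kept their direction and side of the threshold, 37 lost it, 21 gained it and 17 changed sign, none of the last called. The number of genes called in High against NT was 493 without the replicate block and 1927 to 4394 with a library left out. In Low against NT it was 0 without the block by edgeR (950 at an unadjusted p under 0.05, and 588 by DESeq2 with the block), 1071 without an expression filter, 343 at a mean CPM of at least 5, 881 with 2 groups alone and 144 to 1483 with a library left out. In High against Low the values were 0 (1238 unadjusted, and 878 by DESeq2 with the block), 1425, 522, 1864 and 335 to 1982. Between the leukemias, where the matching fit with no replicate block leaves out the label and keeps the leukemia, they were 90 in that fit, 849 at a mean CPM of at least 5 and 829 to 2642. Cathepsin genes called in these fits without the replicate block numbered 1 in High against NT and 0 in each of the other 3 comparisons, and 0 in Low against NT with 2 groups alone, where 1 had an unadjusted p under 0.05 and Ctss an adjusted p of 0.060. With a library left out they numbered 3 to 7 in High against NT, 0 to 2 in Low against NT, 3 to 6 in High against Low and 4 to 8 between the leukemias.

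Signs changed for log2 differences that were not called, with ranges over the libraries left out in turn. In High against NT these were -0.271 to 0.135 for Ctsa and -0.196 to 0.493 for Ctsz. In Low against NT they were -0.314 to 0.087 for Ctsa, -0.014 to 0.091 for Ctsb, -0.009 to 0.236 for Ctsd and -0.169 to 0.514 for Ctsz. In High against Low they were -0.060 to 0.142 for Ctsa (-0.016 with upper quartile factors), -0.374 to 0.056 for Ctsl and -0.247 to 0.180 for Ctsz. Between the leukemias they were -0.126 to 0.197 for Ctsw (0.023 by DESeq2). The fits without a library have fewer samples, and the cause was not tested further. A lone library left in a group is assumed to vary like the other groups. Ctsw, with 4 to 23 counts, is limited by depth.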
